A study of Arabidopsis thaliana with 6 samples.

Results

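A set of 14 genes, 0.0573% of the 24434 in the deposited table, had transcripts that stood far higher in the stem of 1 wild-type (WT) Arabidopsis thaliana plant than in the other 5 plants of the study. They were chosen on their measured level, in FPKM (fragments per kilobase of exon, scaled to the depth of the library). The rule asked for at least 5 FPKM in WT replicate 1, and for at least 4 times the highest value of WT replicates 2 and 3 and overexpressor replicates 1 to 3. Of the 12353 genes with at least 5 FPKM in WT replicate 1, these 14 reached that ratio. They include the clock genes CCA1 and PRR9, the anthocyanin regulator PAP1, the MYB factor MYB59, the senescence protease SAG12 and the dehydration-related AtLEA4-1. The level of these genes in WT replicate 1 is therefore a description and not a finding, and no test of it is given.

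The study compared 3 WT plants with 3 plants overexpressing a gene called Bnt07G011994, all in the Columbia background. The labels' protocols describe greenhouse growth at 22 °C, with days of 15 h light and 9 h dark, and a harvest once stems were near 10 cm long, with the stems of 1 plant in each sample. The labels used here do not give the promoter of the transgene, the number of transgenic lines or the hour at which each stem was cut. Between 44597288 and 45642240 reads per library fell in genes, so that 1 read in a gene with 1 kb of exons was worth 0.0219 to 0.0224 FPKM. WT replicate 1 stood apart from every other library. In pairs of libraries with it, squared differences were 32.9 to 78.4 times those of sampling noise (median over genes, libraries scaled by total reads). On this squared scale, the value was 3.04 times for WT replicates 2 and 3 and 7.80 to 19.7 times for the remaining pairs.

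The circadian clock of plants is a set of genes that repress or activate each other in turn through the day. CCA1 acts around dawn, PRR9 follows in the morning and represses CCA1, and evening genes come later. Anthocyanins, the red and purple pigments of stems, are made by enzymes that PAP1 and related MYB factors switch on, above all in strong light and with ample sugar. SAG12 encodes a cysteine protease that is a standard marker of ageing leaves, and LEA proteins build up in drying seeds and in stressed tissue.

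Both clock genes and AtLEA4-1 carried a G-box (CACGTG), a motif bound by bHLH and bZIP factors of light and abscisic acid signalling, in the bases before their annotated start. Each run below ends 1 base before the start of the gene in the RefSeq annotation of TAIR10.1. The sequences are shown because these are the only 3 of the 14 genes with the motif in the window searched, and capitals mark the G-box. In the 250 bases before the start it was in 21.4% of the 14 genes, against 6.91% of the 24433 windows of genes in the table. With 14 genes this share is a description only.
CCA1, chr2:19245341-19245590, plus strand: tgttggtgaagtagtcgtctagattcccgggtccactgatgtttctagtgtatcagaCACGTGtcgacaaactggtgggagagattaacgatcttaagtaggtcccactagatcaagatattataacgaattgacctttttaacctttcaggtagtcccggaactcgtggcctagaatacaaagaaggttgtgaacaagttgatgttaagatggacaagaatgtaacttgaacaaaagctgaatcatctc
PRR9, chr2:19232357-19232606, plus strand: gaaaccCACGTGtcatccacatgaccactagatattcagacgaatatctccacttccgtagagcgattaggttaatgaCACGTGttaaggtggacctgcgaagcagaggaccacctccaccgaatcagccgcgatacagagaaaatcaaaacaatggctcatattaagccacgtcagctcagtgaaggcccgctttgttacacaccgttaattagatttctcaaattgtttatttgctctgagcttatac
AtLEA4-1, chr1:11774234-11774483, plus strand: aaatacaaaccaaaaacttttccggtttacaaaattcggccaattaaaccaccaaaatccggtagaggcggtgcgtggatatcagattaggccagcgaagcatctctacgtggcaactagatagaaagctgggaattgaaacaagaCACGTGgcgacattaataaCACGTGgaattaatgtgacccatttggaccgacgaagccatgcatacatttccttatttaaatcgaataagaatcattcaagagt
The G-box of CCA1 began 193 bases before the start. Those of PRR9 began 244 and 172 bases before it, and those of AtLEA4-1 104 and 85 bases before it.

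CCA1, a MYB-related factor that represses evening genes, lies on chromosome 2 from 19245591 to 19248915. Its level was 19.8 FPKM in WT replicate 1, 2.51 and 2.82 in WT replicates 2 and 3, and 2.67, 4.91 and 3.81 in overexpressor replicates 1, 2 and 3. The overexpressor plants overlapped WT replicates 2 and 3, with overexpressor replicate 1 between them. PRR9, a pseudo-response regulator, lies on the same chromosome from 19232607 to 19235179. Its level was 11.1 FPKM in WT replicate 1, 0.351 and 0.323 in WT replicates 2 and 3, and 1.01, 2.64 and 1.97 in the overexpressor in replicate order. All 3 overexpressor plants thus lay above WT replicates 2 and 3 and below WT replicate 1. The level of LHY, the closest relative of CCA1 and its partner at dawn, was 1.18 FPKM in WT replicate 1, far below that of CCA1 in the same library, and 0.467 to 0.833 in the other libraries.

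The 2 clock genes are 10.4 kb apart, with 3 genes of the table between them. None of those 3 was highest in WT replicate 1, and their ratios of WT replicate 1 to the highest other library were 0.621 to 0.853. PRR9 also shares 908 bp at 99.7% identity with AT2G46670, so reads of the shared stretch may be divided between them. The level of AT2G46670 was at most 0.229 FPKM in any library. Shorter matches were found for PAP1, 133 bp at 93.2% identity with AT1G66380, and for ABCB16, 180 bp at 94.4% with AT3G28380.

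**Figure D1:**
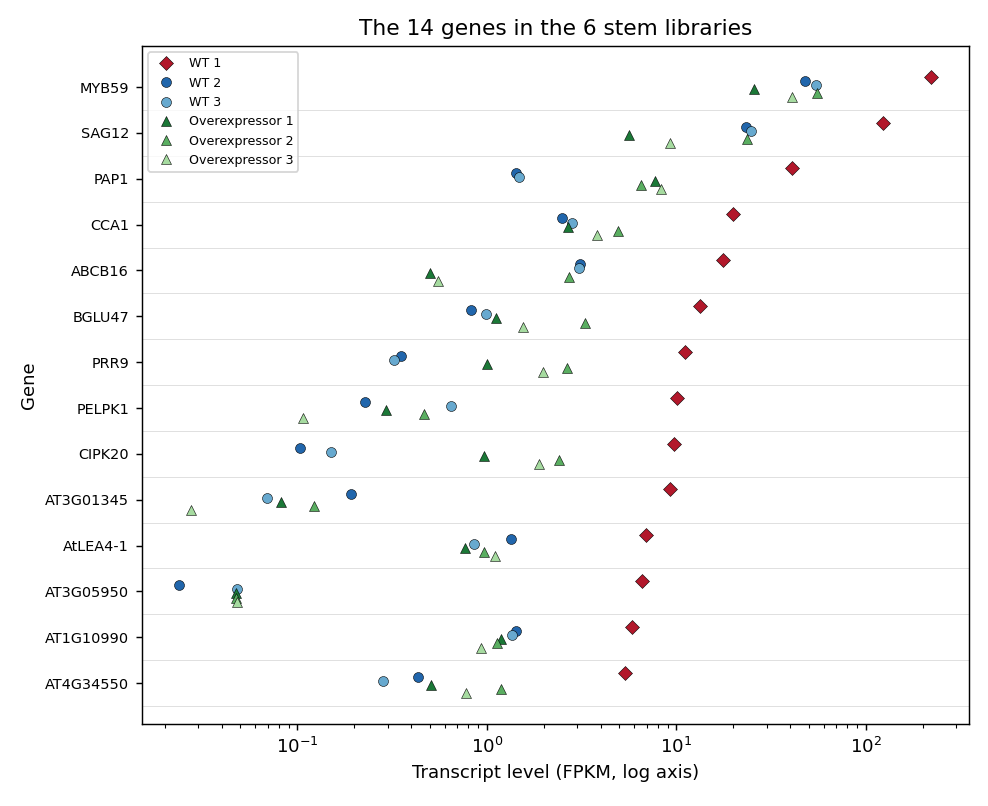
Transcript level in FPKM (log axis) of the 14 genes in each of the 6 stem libraries, 1 point per library, with diamonds for WT replicate 1, circles for WT replicates 2 and 3 and triangles for the overexpressor. The diamonds run from 5.36 FPKM for AT4G34550 to 221 for MYB59, and the order of the triangles and circles differs between genes, as in PAP1 and ABCB16.

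Both MYB regulators were high in WT replicate 1, but the other plants were arranged differently. PAP1 (chromosome 1, 21233555 to 21235292), which switches on the late anthocyanin enzymes, was at 40.8 FPKM in WT replicate 1 and at 1.43 and 1.49 in WT replicates 2 and 3. In overexpressor replicates 1, 2 and 3 it was at 7.75, 6.54 and 8.28. The overexpressor plants were close to each other and all above WT replicates 2 and 3, at 7.52 ± 0.892 FPKM (SD, n = 3) or 5.15 times the mean of that pair. MYB59 (chromosome 5, 24081868 to 24083562), a MYB factor studied in roots and in the cell cycle, was the most abundant of the 14 genes. Its level was 221 FPKM in WT replicate 1, 47.8 and 54.4 in WT replicates 2 and 3, and 25.8, 55.0 and 40.9 in the overexpressor. Here the overexpressor plants overlapped the WT pair, with replicates 1 and 3 below it. MYB48, the closest relative of MYB59 and named after its values were seen, did not meet the rule, at 295 FPKM in WT replicate 1 against 39.2 to 89.4 in the other libraries, a ratio of 3.30.

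SAG12 (chromosome 5, 18613239 to 18614963) was at 123 FPKM in WT replicate 1, at 23.2 and 24.8 in WT replicates 2 and 3, and at 5.66, 23.7 and 9.24 in the overexpressor. Overexpressor replicate 2 lay between the WT pair, and replicates 1 and 3 lay well below it. AtLEA4-1 (chromosome 1, 11774484 to 11775442) was at 6.94 FPKM in WT replicate 1, at 1.34 and 0.856 in WT replicates 2 and 3, and at 0.768, 0.969 and 1.11 in the overexpressor. The groups overlapped, and all 5 values were close to 1 FPKM. CIPK20 (chromosome 5, 18586870 to 18588792), a protein kinase of the family that acts with calcineurin B-like calcium sensors, was at 9.76 FPKM in WT replicate 1. It was at 0.103 and 0.151 in WT replicates 2 and 3 and at 0.961, 2.39 and 1.88 in the overexpressor. In reads, these levels came to 837 in WT replicate 1, 9 and 13 in the WT pair, and 84, 210 and 163 in the overexpressor, which lay above the WT pair in every plant. CIPK20 and SAG12 are 24.4 kb apart, and of the 4 genes of the table between them 1 was highest in WT replicate 1.

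Genes of transport and of the cell wall formed the next group. ABCB16 (chromosome 3, 10611024 to 10616361), a membrane transporter of the ABC family, was at 17.7 FPKM in WT replicate 1, at 3.12 and 3.08 in WT replicates 2 and 3, and at 0.504, 2.70 and 0.555 in the overexpressor. All 3 overexpressor plants lay below the WT pair, replicates 1 and 3 far more so than replicate 2. BGLU47 (chromosome 4, 11561123 to 11563950), annotated as a beta-glucosidase, was at 13.4 FPKM in WT replicate 1, at 0.822 and 0.988 in the WT pair and at 1.12, 3.31 and 1.55 in the overexpressor. All 3 overexpressor plants lay above the WT pair. Its exons overlap those of AT4G21770 on the other strand by 242 bp, and the sources used here do not give whether the authors counted by strand. The level of AT4G21770 was 5.86 FPKM in WT replicate 1 and 3.55 to 5.14 in the other libraries.

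PELPK1, AT3G01345 and AT3G05950 had the 3 largest ratios and were under 1 FPKM in every other library. PELPK1 (chromosome 5, 2959734 to 2961382), a repeat-rich protein of the cell wall, was at 10.1 FPKM in WT replicate 1 and at 0.108 to 0.649 in the other 5 libraries. These were 742 reads in WT replicate 1, 17 and 48 in WT replicates 2 and 3, and 22, 35 and 8 in the overexpressor. The ratio of 15.6 to the highest other library was set by WT replicate 3, and the groups overlapped. Next to PELPK1 lies its relative PELPK2, which was at 0.825 FPKM in WT replicate 1 and at most 0.137 elsewhere, below the minimum level of the rule. AT3G05950 (chromosome 3, 1780938 to 1782007), annotated as a member of the RmlC-like cupin superfamily, was at 6.62 FPKM in WT replicate 1 and at 0.0239 to 0.0482 in the others. This was 273 reads in WT replicate 1 against 1 read in WT replicate 2 and 2 reads in each of the remaining 4 libraries. Against those 5 libraries pooled, the ratio was 154. Its exact binomial 95% interval of 79.9 to 340 covers counting error only, and it is no test, since the rule chose on WT replicate 1. AT3G01345 (chromosome 3, 129138 to 130749), an uncharacterized protein, was at 9.28 FPKM in WT replicate 1 and at 0.0275 to 0.192 in the others. Its reads were 667 in WT replicate 1, 14 and 5 in the WT pair, and 6, 9 and 2 in the overexpressor. The pooled ratio was 94.0, with an interval of 67.2 to 135 of the same kind.

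The last 2 genes are described by RefSeq only in general terms. AT4G34550 (chromosome 4, 16502532 to 16504254), annotated as an F-box protein, was at 5.36 FPKM in WT replicate 1, at 0.436 and 0.285 in WT replicates 2 and 3, and at 0.511, 1.18 and 0.772 in the overexpressor, all 3 above the WT pair. The exons of AT4G34550 overlap those of AT4G34555 on the other strand by 25 bp. AT1G10990 (chromosome 1, 3670243 to 3671191), an uncharacterized protein, was at 5.81 FPKM in WT replicate 1, at 1.42 and 1.36 in the WT pair and at 1.18, 1.13 and 0.935 in the overexpressor, all 3 below the WT pair.

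Most of the 14 genes stood close to the threshold that chose them. The ratio was 4.02 to 4.09 for 5 genes and under 6 for 11, and over 10 for PELPK1, AT3G01345 and AT3G05950. The median ratio was 4.73, against 0.994 over all genes with at least 5 FPKM in WT replicate 1. Just inside the threshold were MYB59 at 4.02, BGLU47 at 4.03 and CCA1 at 4.04. Just outside were AT1G80130, a TPR-like protein, at 3.98, AT3G57680, a peptidase of the S41 family, at 3.68 and AT3G12320, on the list of morning clock genes, at 3.65. Overexpressor replicate 2 was the highest of the other 5 libraries for 6 of the 14 genes, and for 5 of the 10 that average 1 FPKM or more in those libraries, against 30.1% of all such genes. The rule uses this highest value, so the count is a description only. Without overexpressor replicate 2 in the comparison, the rule would take 41 genes. After rescaling of the libraries by median ratios it would take 9, losing CCA1, MYB59, BGLU47, CIPK20 and AT1G10990.

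**Figure D2:**
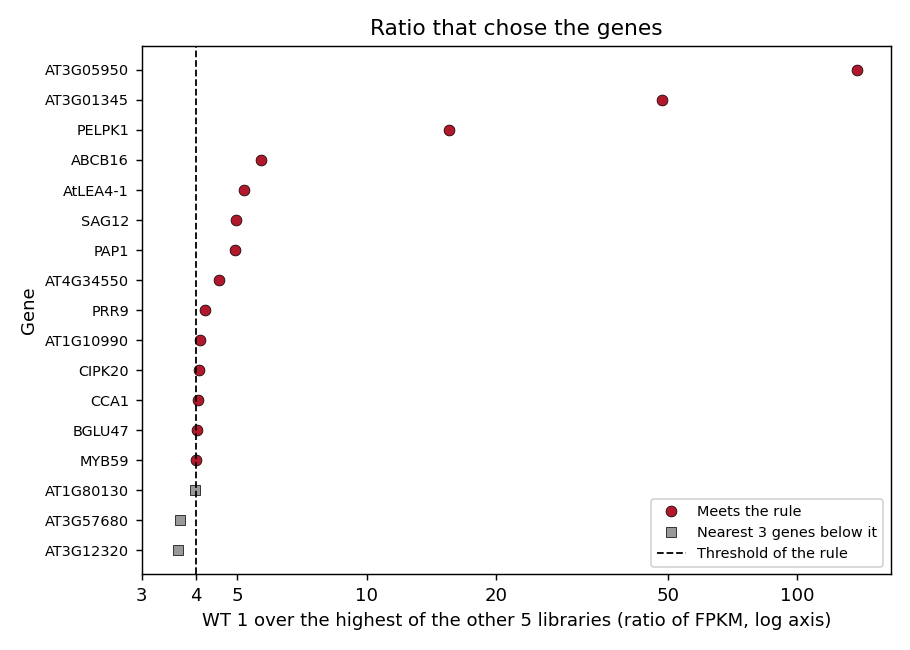
Ratio of FPKM in WT replicate 1 to the highest of the other 5 libraries (log axis) for the 14 genes, as circles, and for the nearest 3 genes below the rule, as squares. The dashed line is the threshold of 4, and the ratios inside it run from 4.02 for MYB59 to 137 for AT3G05950.

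The library that chose the genes was then left out, and the overexpressor was compared with WT replicates 2 and 3 alone, a contrast in which the rule limited the height of all 5 libraries but not their order. PAP1 was higher in the overexpressor than in this WT pair, and it was the only one of the 10 genes tested that passed. The other 4, PELPK1, AT3G01345, AT3G05950 and AT4G34550, had a mean under 1 FPKM over these 5 libraries and were not tested. Among all 16865 genes tested, 0.136% passed in either direction (limma on log2(FPKM + 1), Benjamini-Hochberg adjusted p under 0.05), 0.0949% as higher and 0.0415% as lower. The log2 fold change of PAP1 was 1.79 with a standard error of 0.12 and a 95% interval of 1.49 to 2.08 (limma, adjusted p = 0.00919). This interval and p-value do not cover the spread between WT replicate 1 and the WT pair. PAP1 no longer passed without WT replicate 2, WT replicate 3 or overexpressor replicate 3, with limma adjusted p = 0.246, 0.251 and 0.0652, while its log2 fold change was 1.77, 1.80 and 1.72. In those fits 2, 3 and 10 genes passed among all genes tested, against 23.

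CIPK20 and PRR9 were above the WT pair in every overexpressor plant but did not pass. The log2 fold change of CIPK20 was 1.25, with a 95% interval of 0.65 to 1.85 (limma, adjusted p = 0.180). PRR9 had 1.06, with an interval of 0.43 to 1.69 (limma, adjusted p = 0.255). Without overexpressor replicate 1, the lowest of its group in both genes, both passed, with limma adjusted p = 0.0325 for CIPK20 and 0.0482 for PRR9, in a fit where 0.865% of all genes tested passed. Without overexpressor replicate 2, both genes averaged under 1 FPKM and were not tested, nor was CIPK20 without overexpressor replicate 3. Both genes met that filter only through the overexpressor, so the calls without overexpressor replicate 1 are a description only. At the other end, SAG12 had a log2 fold change of -1.07, with an interval of -2.32 to 0.17, and ABCB16 had -0.997, with an interval of -1.98 to -0.02 (limma, adjusted p = 0.537 and 0.466). Without overexpressor replicate 2 both passed as lower in the overexpressor (limma, adjusted p = 0.0465 and 0.0163), in a fit where 1.02% of all genes tested passed. BGLU47 had a log2 fold change of 0.59 (interval -0.15 to 1.32), CCA1 0.36 (-0.14 to 0.87), AtLEA4-1 -0.10 (-0.50 to 0.30), AT1G10990 -0.20 (-0.51 to 0.11) and MYB59 -0.39 (-1.10 to 0.33).

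**Figure D3:**
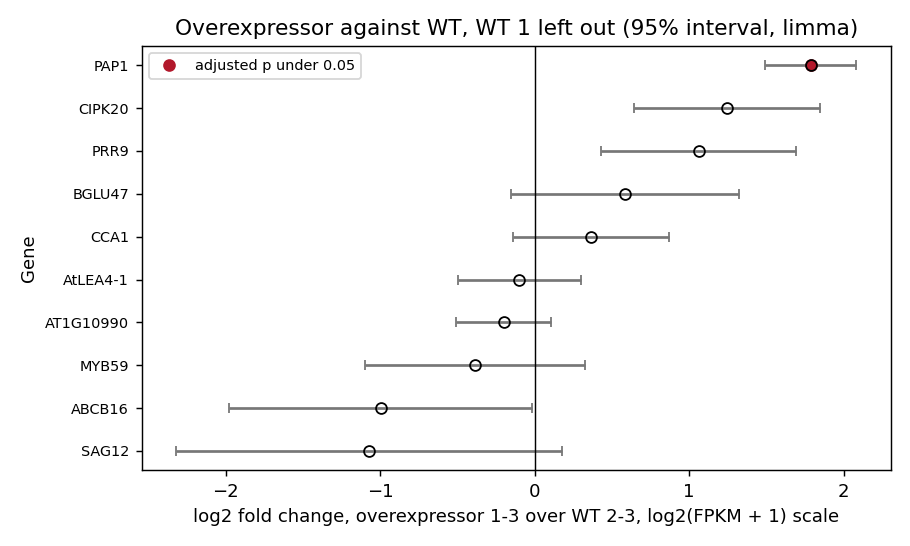
The log2 fold change of overexpressor replicates 1 to 3 over WT replicates 2 and 3 on the log2(FPKM + 1) scale, with its 95% interval from limma, for the 10 genes tested. A filled point marks an adjusted p under 0.05, and PAP1 at 1.79 is the only one, with SAG12 at -1.07 at the other end.

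Of the 10 genes tested, 5 had a positive and 5 a negative log2 fold change, with a median of 0.13 against -0.02 over all genes tested. An unadjusted p under 0.05 was reached by 4 of them (PAP1, CIPK20, PRR9 and ABCB16), and by 10.6% of all genes tested. All 3 overexpressor plants lay above the WT pair for 4 of the 10 (PAP1, CIPK20, PRR9 and BGLU47), against 12.3% of all genes tested. They lay below it for 2 (ABCB16 and AT1G10990), against 19.1%. CIPK20, PRR9 and BGLU47 averaged 0.127, 0.337 and 0.905 FPKM in the WT pair. They met the filter of 1 FPKM only through the overexpressor, so counting them as high there is a description only. The same holds for the unadjusted p of CIPK20 and PRR9. The 3 overexpressor plants themselves differed. Replicate 2 was the highest of them for 7 of the 10 genes, against 43.9% of all genes tested. Replicate 1 was the lowest for 8, against 45.4%. Over genes averaging 1 FPKM or more, deviations of WT replicate 1 from its group mean correlated with those of overexpressor replicate 2 at 0.62. With those of overexpressor replicate 1 they correlated at -0.60. The rule chose on WT replicate 1, so the order of the overexpressor plants is a description only. Over all 6 libraries, the comparison the study was designed for, 0.0119% of 16870 genes passed (limma, adjusted p under 0.05) and none of the 14 did. In that comparison 1 of the 14 had an unadjusted p under 0.05, against 5.43% of all genes, and voom on recovered reads also called none of them. WT replicate 1, which chose the genes, is in that comparison, and nothing is read from the count.

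Time of day, light and stress were looked at through lists of genes, chosen with earlier results of these data known. Of 19 function lists, 3 held any of the 14 genes: CCA1 and PRR9 are on the list of morning clock genes, PAP1 on that of flavonoid genes and SAG12 on that of senescence genes. The other 10 genes were on none. CCA1 and PRR9 meet the counts that follow through the rule itself, so they are left out of them. Of the other 12 morning clock genes in the table, 10 were highest in WT replicate 1, against 42.4% of the 16870 genes that average 1 FPKM or more. WT replicate 1 was at least 2 times the highest other library for 6 of the 12, against 1.35%, and their median ratio was 1.73. These counts use the same kind of value as the rule and are a description. PRR7, a close relative of PRR9, was at 96.4 FPKM in WT replicate 1, 11.9 and 11.99 in WT replicates 2 and 3, and 29.0, 47.3 and 35.5 in the overexpressor. This is the same order of groups as in PRR9. RVE2, a MYB-related factor of the CCA1 family, went the other way, at 42.2 FPKM in WT replicate 1 and 115 to 194 in the other libraries. LCL1, of the same family, was at 66.4 FPKM in WT replicate 1 and 53.9 to 62.1 elsewhere. Leaving WT replicate 1 out, none of the 13 morning clock genes tested passed (limma, adjusted p under 0.05), and all 3 overexpressor plants lay above the WT pair for 7.

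Of the 18 flavonoid genes other than PAP1, 10 were highest in WT replicate 1 and 4 were at least 2 times the highest other library, with a median ratio of 1.29. PAP1 was the only 1 of the 15 genes of the list tested that passed without WT replicate 1, and the median log2 fold change of the 15 was -0.35. The 3 other genes of highest mean level on the list were DFR, TT4 and MYBL2. DFR, the enzyme that commits the pathway to anthocyanins, was at 48.9 FPKM in WT replicate 1, 18.4 and 19.3 in WT replicates 2 and 3, and 7.35, 34.1 and 1.66 in the overexpressor. Its overexpressor plants were spread on both sides of the WT pair, while those of PAP1 were all above it. TT4, chalcone synthase at the head of the pathway, was at 22.2 FPKM in WT replicate 1, 30.9 and 30.7 in the WT pair and 12.8, 47.1 and 4.06 in the overexpressor. MYBL2, a repressor of the pathway, was at 47.1 FPKM in WT replicate 1, 4.69 and 5.62 in the WT pair and 10.2, 20.2 and 13.5 in the overexpressor, an order like that of PAP1.

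**Figure D4:**
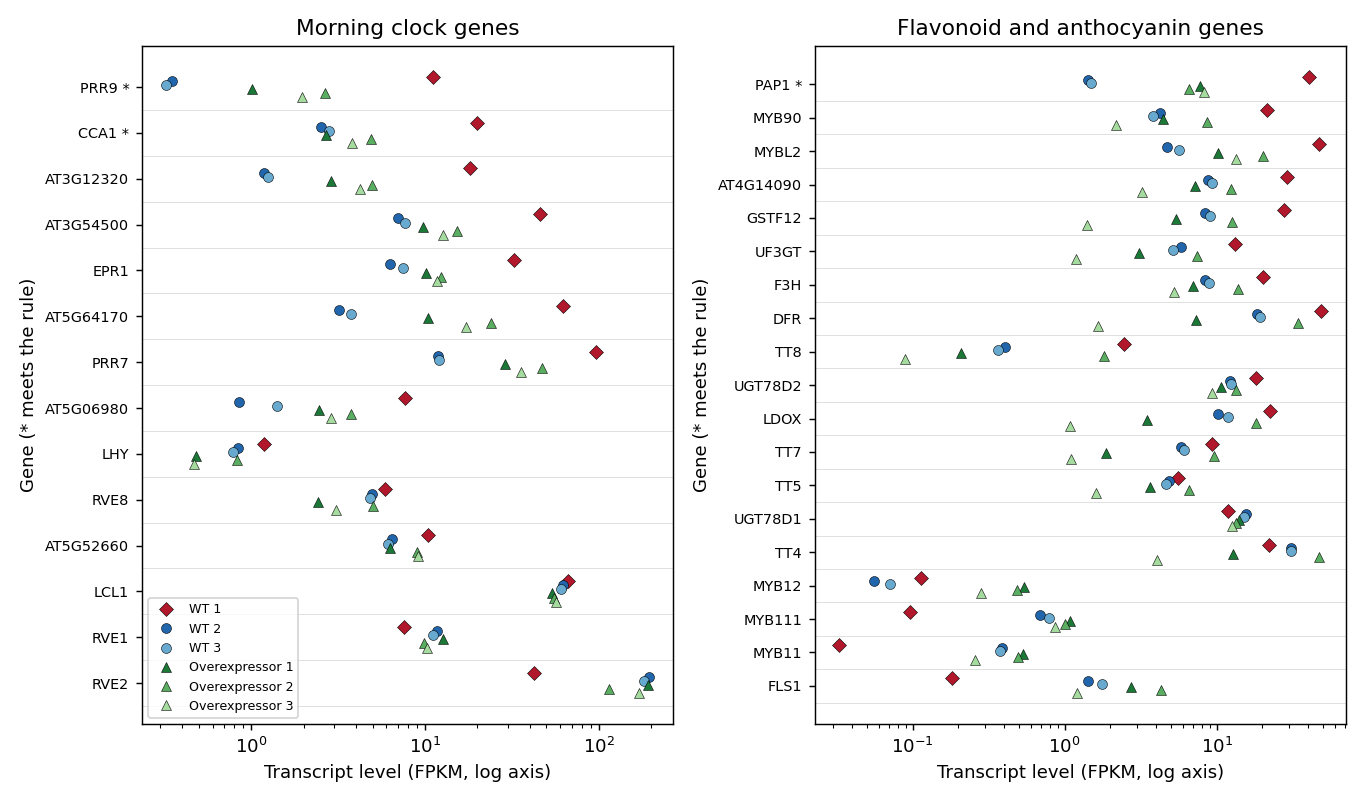
Transcript level in FPKM (log axes) of the genes on the morning clock list (left) and the flavonoid list (right) in each of the 6 libraries, 1 point per library, with an asterisk at the genes that meet the rule. In the left panel the diamond of WT replicate 1 is the highest point for 12 of 14 genes and the lowest for RVE2 and RVE1, and in the right panel it is the highest for 11 of 19.

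Of the 10 senescence genes other than SAG12, 7 were highest in WT replicate 1, and none was at least 2 times the highest other library. NYC1, which starts the breakdown of chlorophyll b, was at 194 FPKM in WT replicate 1 and at 110 to 157 in the other libraries. ACD1, an oxygenase of chlorophyll breakdown, was at 62.2 against 45.3 to 52.4 FPKM. SAG21, a stress- and age-related LEA-like protein, was at 61.3 FPKM in WT replicate 1, within the 50.7 to 71.8 of the others. Without WT replicate 1 none of the 9 senescence genes tested passed (limma, adjusted p under 0.05).

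The 16 lists that held none of the 14 genes differed in how often WT replicate 1 was highest, beside the 42.4% of all genes given above. That share, and the 1.35% below, are of genes averaging 1 FPKM or more. The lists, here and above, were counted without that filter, so the shares are not strictly comparable. With such a filter, in the contrast without WT replicate 1, 15 of the 24 heat shock genes and 7 of the 13 iron genes were tested. It was highest for 9 of 12 day and evening clock genes, 17 of 25 genes of light signalling and light stress, 7 of 8 genes of photoperiod output and 15 of 24 heat shock genes. It was highest for 14 of 21 light-harvesting antenna genes, 10 of 15 of starch turnover, 11 of 25 of jasmonate, 4 of 12 of chlorophyll synthesis and 3 of 9 of PIF and growth outputs. It was highest for 9 of 24 genes of abscisic acid and drought, 5 of 19 of rapid touch and wounding, 3 of 13 of iron, 2 of 19 of cold, 1 of 12 of sugar starvation, 1 of 12 of salicylic acid and defence and 0 of 5 of nitrate assimilation. Beside the 1.35% of all genes, WT replicate 1 was at least 2 times the highest other library for 6 of the light genes, 5 of heat shock, 3 of the day and evening clock, 2 of photoperiod output and 2 of jasmonate. It was so for 1 gene each of sugar starvation, salicylic acid and iron, and for none on the other 8 lists.

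Markers of some stem tissues, though not of all, also differed in WT replicate 1. In bulk tissue, fewer cells of a type and less RNA per cell cannot be told apart. All 5 secondary wall genes were lowest in WT replicate 1. Their summed level was 148 FPKM there, against 742 and 789 in WT replicates 2 and 3 and 615 to 924 in the overexpressor. All 7 vessel genes were lowest there too, at 21.5 FPKM in sum against 117 and 130 in the WT pair and 98.7 to 141 in the overexpressor. The 5 guard cell genes summed to 95.5 FPKM in WT replicate 1, 1092 and 1175 in the WT pair and 1031 to 2071 in the overexpressor, and 3 of the 5 were lowest in WT replicate 1. The 4 phloem genes summed to 223 FPKM in WT replicate 1, 260 and 263 in the WT pair and 214 to 228 in the overexpressor. Of them, 2 were highest and 2 lowest in WT replicate 1. The 10 flower and anther genes summed to 7.99 FPKM in WT replicate 1 and to 9.87 to 12.9 in the other libraries, and 5 of the 10 were lowest in WT replicate 1. Of the 8 seed genes in the table, 7 were at 0 in WT replicate 1 (SESA1, SESA2, SESA3, CRU2, CRU3, OLEO1 and OLEO2), and the sum of the list was at most 2.48 FPKM in any library. The part of tissue make-up in the levels of the 14 genes was not tested.

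In the windows from 250 bases before to 50 after the annotated start, 9 motifs were searched on both strands. The G-box was present in 3 of the 14 genes (21.4%), against 8.21% of the 24433 windows of genes in the table. The abscisic acid element ACGTGNC, which can overlap the G-box, was in the same 3 genes (10.8% of all windows). The evening element AAAATATCT, a motif of clock-controlled genes, was in PRR9 alone, after its start (2.89% of all windows). The C-repeat core CCGAC was in AtLEA4-1, BGLU47, AT4G34550 and CIPK20, 28.6% against 15.4%. The heat shock element GAANNTTC was in PAP1 and PELPK1, 14.3% against 11.4%. The W-box core TTGAC was in 6 genes, 42.9% against 50.6%. The CCA1-binding site AAAAATCT, the I-box GATAAG and the telo-box AAACCCTA were in none of the 14 windows, and in 7.92%, 15.0% and 5.59% of all windows. With 14 genes these shares are descriptions only.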

How the data were processed

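The authors deposited 1 table of FPKM values for 24434 genes in 6 stem libraries. Reads were aligned with tools that include HISAT2, per the submitters' processing notes. The version, build, annotation, counting program and use of strand were not given in the sources used here. FPKM multiplied by exon length in the RefSeq annotation of TAIR10.1 and by depth gave whole reads for 100% of values (tolerance 0.1 reads), so depth and coordinates were taken from that annotation. A count of 3 reads per kb, the limit that a count of 0 allows, is 0.0657 to 0.0673 FPKM.

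The 14 genes and the gene lists were chosen with earlier results of these data known. The lists hold 343 genes, 338 of them in the table. The overexpressor was compared with WT with limma 3.58.1 (R 4.3.3). The values were log2(FPKM + 1), the empirical Bayes step had an intensity trend, and tests were two-sided. Genes averaging 1 FPKM or more in the libraries used were tested, with Benjamini-Hochberg adjustment over them and a threshold of 0.05. Such fold changes understate the change of low genes. The script was tested on simulated data. By the labels each sample is its own plant, so p-values measure variation of plants and libraries combined. The contrast without WT replicate 1 leaves out that plant. Its p-values therefore do not cover the spread between WT replicate 1 and the other WT plants.

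Named genes were all 14 and, for each list that holds one of them, the 3 others of highest mean FPKM, together with the 3 genes nearest below the ratio of 4. LHY, MYB48, PELPK2, AT2G46670, AT4G21770 and those in the last observations were chosen after their values were seen. Spread over sampling noise is a ratio of squared differences and used recovered reads of genes with enough reads in a pair. Libraries were scaled by total reads only, so an offset shared by most genes of a library adds to the spread. Median-ratio factors were 1.06 for WT replicate 1, 0.956 for overexpressor replicate 1 and 0.990 to 1.01 for the others. Near-identical copies were matches of at least 100 bp at 90% identity to another gene. Promoter windows were read from the TAIR10.1 genome, a source chosen after seeing the data. Alternatives were the fold and level of the rule, pseudocounts, filters, median-ratio scaling, a replicate block, voom and leaving out each library.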

Additional observations from a re-analysis of the deposited data

How the results depend on the processing

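The rule took 14 genes, and 32 at a ratio of 3, 3 at a ratio of 6, 22 at a minimum of 2 FPKM, 8 at a minimum of 10 FPKM, 9 after median-ratio scaling and 6 with 1 FPKM added to both sides of the ratio. Leaving out each of the other libraries in turn gave 14 to 41 genes, the highest without overexpressor replicate 2. Without WT replicate 1, 23 genes passed the comparison of overexpressor and WT, against 51 after median-ratio scaling and 79 with the replicate block, and 2 to 171 with each library left out in turn. Of the 14 genes, 1 passed, and 0 to 3 with each library left out. Where a single WT sample remains, it is assumed to vary like the other group. Over all 6 libraries 2 genes passed, 4 with no filter, 1 with voom on recovered reads and 0 with the replicate block, and 1 to 23 with each library left out, the highest without WT replicate 1; 0 to 1 of the 14 passed. The count with every overexpressor value above the WT pair went from 4 to 1 with a filter at a mean of 5 FPKM and to 2 without overexpressor replicate 2, the lower end of its range of 2 to 5 with each library left out. The count below went from 2 to 0 with that filter and lay between 2 and 4 with each library left out. The causes were not tested, except that a higher filter leaves fewer genes. Deviations of same-numbered plants from their group means correlated at -0.60, -0.59 and 0.03, and those of WT replicate 1 and overexpressor replicate 2 at 0.62. Within a group of 3 plants the deviations are tied to each other. The correlations therefore cannot decide whether replicate numbers pair the plants. Over 118 alternatives for the fold changes of the 10 genes, 111 kept direction and side of the threshold, 3 lost the call of PAP1, 4 gained a call and 0 reversed. The evening element left the count (1 to 0) when the window ended at the start. FPKM near 1 read per kb limits AT3G05950 and AT3G01345 outside WT replicate 1.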

Other observations

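A further 27 genes met the rule once overexpressor replicate 2 was left out of the highest other value. This choice itself makes that plant the highest of the other 5 libraries in all 27, so its place is not a result. The 27 genes were seen after the data were examined and are given as values only. Of these genes, 5 are on the function lists, among them light, photoperiod and pigment genes. CDF3, a DOF factor of the photoperiod pathway, was at 68.0 FPKM in WT replicate 1, 1.95 and 2.31 in WT replicates 2 and 3, and 11.6, 23.9 and 16.1 in the overexpressor. STH, a B-box protein of light signalling, was at 25.0 FPKM in WT replicate 1, 7.499 in overexpressor replicate 2 and 3.47 to 4.35 in the other 4 libraries. BBX18, of the same family, was at 12.5, 4.59 and 1.74 to 2.82 FPKM in that order. MYB90, a relative of PAP1 that also switches on anthocyanin enzymes, was at 21.4, 8.59 and 2.17 to 4.46 FPKM.

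The choice of the 27 genes puts overexpressor replicate 2 above the remaining 4 libraries. It was 1.17 to 7.94 times the highest of them. The largest such ratio was that of AT4G38080, at 6.16 FPKM in WT replicate 1, 2.37 in overexpressor replicate 2 and at most 0.299 elsewhere.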
